A study of Mus musculus with 18 samples.

Results

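Fatty acid uptake and oxidation genes are 37 of the 20979 genes in the expression table. They were taken by symbol and not by their values, and described across the 18 testis libraries of the series. Of the 37, 33 had a mean of at least 1 FPKM (fragments per kilobase of transcript, scaled to library size) and were tested. The other 4 were the transcription factor Ppara, its coactivator Ppargc1a, and the peroxisomal enzymes Ehhadh and Acox2. The series measured RNA from whole frozen testis of ICR mice at 10 weeks of age, in 6 groups of 3 libraries. It asked whether FMT altered the damage that a high-fat diet does to the testis.

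The control group had no treatment named beyond the shared strain, tissue and age. The AOS group was given AOS at 10 mg/kg, the HFD group a high-fat diet, and the HFD-AOS group the diet with AOS at 10 mg/kg. The HFD-AOSFMT and HFD-conFMT groups had the diet with FMT, labelled AOS 10 mg/kg and control, respectively. AOS and FMT are given here as the labels have them, because the sources do not spell them out. Neither the length of the diet nor the FMT donors are named in the labels. The labels do not say that the 3 libraries of a group came from separate animals, so the p-values measure the spread between these libraries, part of which may be technical.

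Library sums lay between 588081 and 637005 FPKM, and 12996 to 13221 genes reached 1 FPKM in each library. The median absolute difference between a pair of libraries, on the log2 scale, was 0.0785 to 0.137 within groups and 0.0770 to 0.152 between them. The tissue matched its label: all 6 of 6 elongating spermatid markers were present at a summed 40080 to 60090 FPKM, all 6 of 6 Leydig markers at 2536 to 4897 FPKM, and 6 of 7 Sertoli markers had a mean over 1 FPKM. Transcripts of other organs stood out in a few libraries. Crisp1, made in the epididymis, reached 159 FPKM in control 3 and 104 FPKM in HFD-conFMT 2, and Alb, made in the liver, reached 6.33 FPKM in HFD-AOS 3.

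Long-chain fatty acids enter cells with the help of proteins such as Cd36 and the fatty acid transport proteins, and are activated to acyl-CoA by the acyl-CoA synthetases. The carnitine shuttle (Cpt1 on the outer mitochondrial membrane, the translocase Slc25a20, and Cpt2 on the inner membrane) carries the acyl groups into mitochondria. There the oxidation spiral shortens them through dehydrogenase, hydratase, second dehydrogenase and thiolase steps, with electrons passed on through the electron transfer flavoprotein. Peroxisomes begin the breakdown of very long and branched chains, and PPAR alpha with its coactivators switches many of these genes on in liver and heart. In the testis, Sertoli cells take up and oxidise lipid from the residual bodies and dying germ cells they engulf.

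Upstream sequences are shown for the members whose values with AOS came nearest to the threshold, so that their letters can be set side by side. RefSeq windows on GRCm38.p6 were held for 32 of the 37 members. None was held for Acaa2, Hsd17b4, Crat, Decr1 or Cpt1b. The 250 bases before the start are printed for 4 of the 5 members with the smallest p for AOS. The window of Hadhb is left out because it lies over the first exon of its neighbour Hadha, which is transcribed the other way. Capitals mark, on either strand, the letters AGGTCA (the element that nuclear receptors such as PPAR alpha bind), GGGCGG (the GC box) and CCAAT.
Acsl5 upstream, chr19:55253119-55253368, plus strand: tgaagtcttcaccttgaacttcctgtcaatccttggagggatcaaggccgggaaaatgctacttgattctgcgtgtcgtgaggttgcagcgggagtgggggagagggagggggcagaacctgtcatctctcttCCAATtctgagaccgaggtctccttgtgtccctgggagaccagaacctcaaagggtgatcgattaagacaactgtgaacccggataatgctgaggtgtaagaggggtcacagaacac
Acox3 upstream, chr5:35582784-35583033, plus strand: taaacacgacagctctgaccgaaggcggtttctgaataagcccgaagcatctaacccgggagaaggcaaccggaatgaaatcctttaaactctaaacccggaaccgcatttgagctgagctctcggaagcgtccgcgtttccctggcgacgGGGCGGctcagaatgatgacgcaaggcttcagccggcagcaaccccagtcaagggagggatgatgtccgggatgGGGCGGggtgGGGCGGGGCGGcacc
Acadm upstream, chr3:153944644-153944893, minus strand: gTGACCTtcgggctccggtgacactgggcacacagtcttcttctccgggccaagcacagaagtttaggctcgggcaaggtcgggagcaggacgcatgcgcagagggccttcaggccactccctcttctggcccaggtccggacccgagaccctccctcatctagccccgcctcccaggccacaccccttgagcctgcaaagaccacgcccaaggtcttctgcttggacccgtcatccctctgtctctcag
Acsl4 upstream, chrX:142390536-142390785, minus strand: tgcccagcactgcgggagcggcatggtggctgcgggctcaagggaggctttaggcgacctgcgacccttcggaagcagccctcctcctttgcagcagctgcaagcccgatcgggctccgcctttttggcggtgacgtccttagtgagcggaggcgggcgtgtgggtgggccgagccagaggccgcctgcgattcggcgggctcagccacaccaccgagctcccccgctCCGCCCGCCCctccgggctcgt

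Acsl5 has a CCAAT that begins 117 bases before the start, Acadm an AGGTCA in reverse at the far end of the window, Acsl4 a pair of overlapping GC boxes at 22 and 18 bases, and Acox3 GC boxes at 99, 25, 15 and 10 bases, of which the last pair overlap. The Acsl5 window lies inside the annotated gene (chr19:55251938-55297720), before a RefSeq start downstream of the first annotated one. The Acox3 gene shares exonic bases with the antisense transcript 4931431C16Rik. Over all 38 windows of the members (Acox2, Acsl1, Acsl6 and Slc27a1 had several starts), 27 held GGGCGG, or 71.1%, against 32.7% of 32851 mouse promoter windows of the same length. CCAAT was in 18 of the 38 (47.4%, against 33.8%) and AGGTCA in 7 (18.4%, against 14%). The direct repeat of AGGTCA with 1 base between the 2 copies, which contains the shorter element, was in 0 of the 38, against 0.0335% of all windows. TGACGTCA was in 0 (against 1.55%) and TATAAA in 0 (against 12.4%). The windows are not all separate: those of Hadha and Hadhb overlap and share a GC box, and those of Acox2 overlap. The windows they are set beside were not limited to genes expressed in testis. A match is only a run of letters, and no binding was measured.

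The carnitine shuttle, with Crat counted in it, was the most abundant role. Its 6 members made up 48.2% of the members' summed FPKM over the 18 libraries. Most of this was Crat, at a mean of 424 FPKM, where the 6 summed to a median of 618 FPKM. Without Crat this role would not rank first. The 5 acyl-CoA synthetases made up 24.7%, the 12 enzymes of the mitochondrial spiral 18.1%, the 3 electron transfer genes 4.16%, the 6 peroxisomal genes 3.03%, and the 3 uptake genes 1.64%. The 2 regulators made up 0.0842%. Crat, Acsl1 and Cpt1b alone made up 61.5%. The sum over all 37 members was steady, at 1227 to 1335 FPKM per library with a median of 1285.

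**Figure D1:**
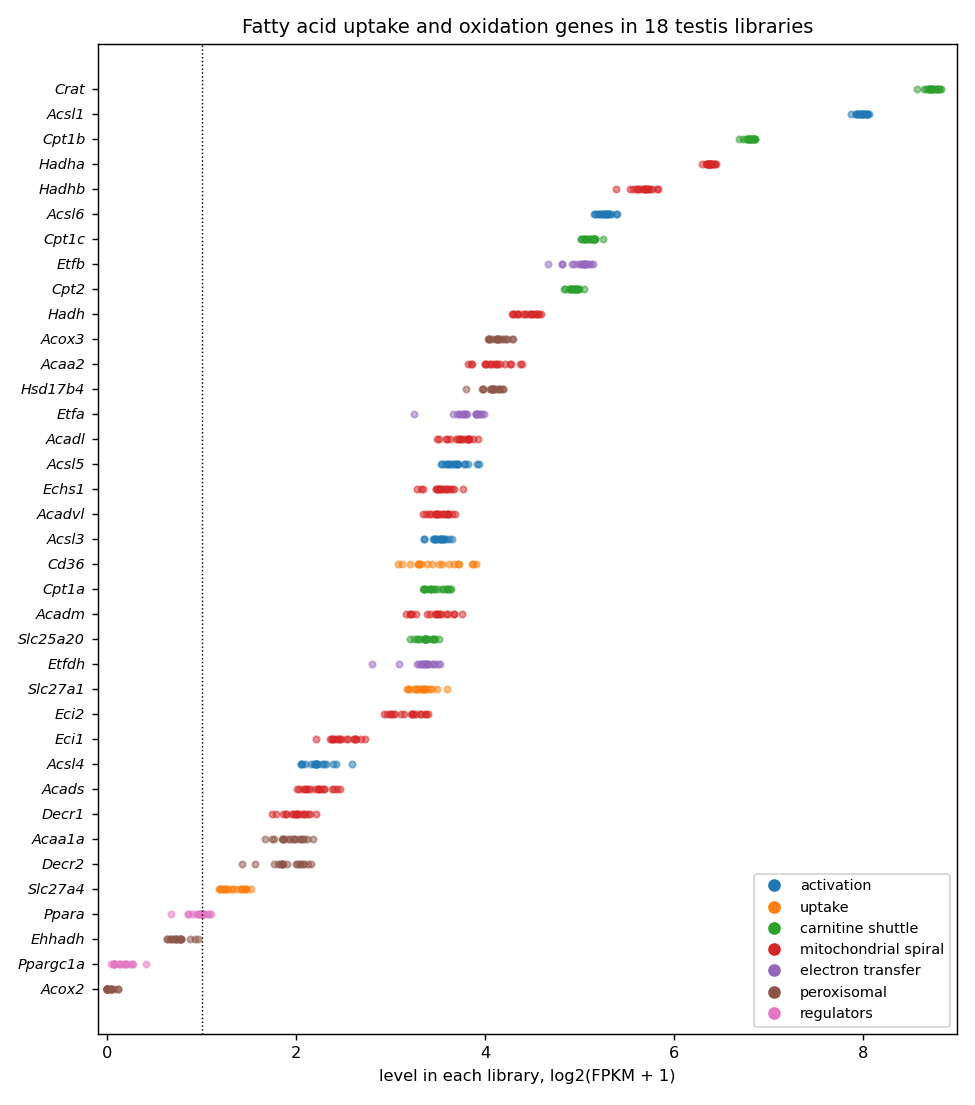
Level of each of the 37 members in each of the 18 libraries, as log2(FPKM + 1), with genes ordered by their mean, points coloured by role and a dotted line at 1 FPKM. Crat, Acsl1 and Cpt1b stand above 100 FPKM in every library, and Acox2 and Ppargc1a lie at the foot of the plot.

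Crat (chr2:30400471-30415813, minus strand on mm10), which moves short acyl groups between CoA and carnitine, had the highest level of the members. It was at 442, 453 and 429 FPKM in control, 415, 421 and 399.5 in AOS, 425, 438 and 428 in HFD, 448, 414 and 415 in HFD-AOS, 439, 404 and 425 in HFD-AOSFMT, and 439.6, 381 and 417 in HFD-conFMT. All 3 AOS libraries lay under all 3 control libraries, and every other group overlapped the control. The mean over all libraries, 424 FPKM, stood at the 98.5th percentile of the genes tested. Crat overlaps exons of Dolpp1 on the other strand, whose level was only 9.39 FPKM. Whether the counting used strand is not stated in the labels.

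The 3 forms of carnitine palmitoyltransferase 1, the gate of the shuttle, differed widely in level. Cpt1b, known as the muscle form, was at 107, 109 and 111 FPKM in control, 112, 113 and 109 in AOS, 114, 105 and 114 in HFD, 102, 115 and 115 in HFD-AOS, 109, 113 and 109 in HFD-AOSFMT, and 112, 112 and 109.8 in HFD-conFMT. These groups overlapped throughout, and the coefficient of variation over all 18 libraries was 3.04%. Cpt1c, known as the brain form and found in the endoplasmic reticulum, was at 34.5, 34.5 and 37 FPKM in control, 34.7, 32.2 and 34.2 in AOS, 31.4, 32.6 and 34.5 in HFD, 34.8, 32.1 and 34.1 in HFD-AOS, 32.6, 33.2 and 31.9 in HFD-AOSFMT, and 33.4, 31.4 and 34.0 in HFD-conFMT. The control libraries held the highest value, at 37 FPKM.

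Cpt1a, known as the liver form, was at 11.5, 11.1 and 11.2 FPKM in control, 9.24, 11 and 9.28 in AOS, 10.7, 11.4 and 9.72 in HFD, 9.14, 10.1 and 10.3 in HFD-AOS, 9.66, 9.48 and 10.6 in HFD-AOSFMT, and 9.74, 9.24 and 9.97 in HFD-conFMT. The control libraries were the tightest group, and the libraries of AOS, HFD-AOSFMT and HFD-conFMT all lay under them, as those of HFD-AOS did. On the FPKM scale, which is per transcript length, Cpt1b exceeded Cpt1a by 9.24 to 12.1 times and Cpt1c by 2.94 to 3.64 times in every library. Cpt2, which rebuilds acyl-CoA inside the mitochondrion, had a mean of 29.6 FPKM, and the translocase Slc25a20 a mean of 9.34 FPKM.

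Acsl1 (chr8:46471037-46536051, plus strand), which activates long-chain fatty acids, was at 252, 259 and 248 FPKM in control, 242, 253 and 243 in AOS, 262, 263 and 263 in HFD, 266, 261 and 234 in HFD-AOS, 256, 247 and 249 in HFD-AOSFMT, and 254, 255 and 242 in HFD-conFMT. The 3 HFD libraries lay above every library of the other groups except HFD-AOS 1, and differed among themselves by an SD of only 0.207 FPKM. The other synthetases among the members were far lower. Acsl6 had a mean of 37.5 FPKM, Acsl5 of 12, Acsl3 of 10.4 and Acsl4, which prefers arachidonic acid, of 3.71. Outside the members, the synthetases Acsbg2 and Acsbg1 had means of 133.8 and 57.85 FPKM.

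Uptake genes were low. Cd36, the scavenger receptor that takes up fatty acids and is found on endothelium, macrophages and fat cells, was at 9.47, 8.82 and 13.6 FPKM in control, 11.2, 12.2 and 8.77 in AOS, 7.42, 10.6 and 14 in HFD, 8.24, 7.66 and 10.4 in HFD-AOS, 8.75, 11.8 and 9.80 in HFD-AOSFMT, and 8.97, 13.5 and 12.1 in HFD-conFMT. Its coefficient of variation was the largest of the 33 tested members, and the groups overlapped throughout. The markers of the cell types that carry Cd36 were present at summed levels of 7.07 to 9.72 FPKM for endothelium (4 of 6 markers with a mean over 1 FPKM), 27.3 to 39.8 FPKM for macrophages (6 of 7) and 141 to 180 FPKM for fat cells (5 of 8, mostly Lipe, which testis also expresses). Their part in the level of Cd36 was not tested. The transporters Slc27a1 and Slc27a4 had means of 9.10 and 1.53 FPKM.

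In the mitochondrial spiral the trifunctional protein led. Its alpha subunit Hadha, which carries the hydratase and long-chain dehydrogenase activities, was at 82.0, 84.0 and 85.3 FPKM in control, 77.4, 81.3 and 80.5 in AOS, 80.3, 82.6 and 84.7 in HFD, 85.8, 80.2 and 81.3 in HFD-AOS, 83.1, 82.4 and 82.3 in HFD-AOSFMT, and 81.2, 83.5 and 81.8 in HFD-conFMT. Only the AOS libraries lay wholly under the control. The coefficient of variation of Hadha was 2.49%. Hadha lies at chr5:30118304-30155162 and its partner Hadhb, the thiolase subunit, begins next to it at chr5:30155248-30184593 on the other strand. Hadha was 1.48 to 2.10 times as high as Hadhb, and the highest of these ratios came from the low Hadhb value of HFD-AOS 1.

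Of the acyl-CoA dehydrogenases, the short-chain enzyme had the lowest mean. Acadl (long chain) had a mean of 12.3 FPKM, Acadvl (very long chain) of 10.5, Acadm (medium chain) of 10.0 and Acads (short chain) of 3.68. Further along the spiral, the means were 20.7 FPKM for the dehydrogenase Hadh, 16.2 for the thiolase Acaa2, 10.6 for the hydratase Echs1, 8.08 for the isomerase Eci2, 4.66 for Eci1 and 2.98 for the reductase Decr1. Of the electron transfer genes, Etfb was at 32.0, 29.3 and 32.1 FPKM in control, 32.1, 32.3 and 32.5 in AOS, 32.1, 27.0 and 27.1 in HFD, 24.3, 32.8 and 34.3 in HFD-AOS, 33.7, 31.2 and 30.5 in HFD-AOSFMT, and 29.8, 31.3 and 33.3 in HFD-conFMT. The lowest and the highest of these values were both in HFD-AOS. Etfa had a mean of 13.0 FPKM, and the ubiquinone reductase Etfdh of 9.18.

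Among peroxisomal genes Acox3, an oxidase of branched chains, had the highest mean, 16.7 FPKM, followed by the multifunctional enzyme Hsd17b4 at 15.8. The thiolase Acaa1a was at 2.85 FPKM and the reductase Decr2 at 2.76. Ehhadh, the other multifunctional enzyme, was at 0.55 to 0.94 FPKM, and Acox2 was listed at 0 in 10 of the 18 libraries and at 0.08 FPKM at most. The reads of Acaa1a may be shared with its near-copy Acaa1b, which had a mean of 0.659 FPKM. Ppara was at 0.97, 1.09 and 0.81 FPKM in control, 1.02, 1.03 and 0.96 in AOS, 1.03, 1.01 and 0.60 in HFD, 0.98, 1.14 and 1.11 in HFD-AOS, 0.86, 0.99 and 0.94 in HFD-AOSFMT, and 0.81, 0.91 and 1.02 in HFD-conFMT. Ppargc1a was at 0.15, 0.20 and 0.05 FPKM in control, 0.05, 0.33 and 0.15 in AOS, 0.05, 0.14 and 0.21 in HFD, 0.09, 0.18 and 0.05 in HFD-AOS, 0.10, 0.03 and 0.10 in HFD-AOSFMT, and 0.13, 0.05 and 0.05 in HFD-conFMT. The groups overlapped for both regulators. Ppara and Ppargc1a were not among the genes tested, which needed a mean of 1 FPKM.

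Whether the high-fat diet altered these genes was asked by setting HFD against control. Of the 33 tested members 0 passed an adjusted p of 0.05 (limma, Benjamini-Hochberg over 13105 genes), as 0% of all genes did. At an unadjusted p under 0.05, 3 members were lower and 0 higher, against 3.84% and 2.91% of all genes. The log2 value was lower for 24 of 33 members, where 54.8% of all genes were lower, and the median difference was -0.04 (all genes -0.01). The count of 3 was 0 without HFD 1, 1 without control 3, and 0 when the 2 groups were fitted alone. Differences are given as log2(FPKM + 1), a scale that makes those of low genes look smaller than they are, and in whole tissue fewer cells of a type and less RNA per cell cannot be told apart.

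Cpt2 had the smallest p of this comparison. It was at 30.6, 32.1 and 30.1 FPKM in control and 27.4, 29.8 and 28.7 in HFD, with no overlap (log2 -0.11, SE 0.04, adjusted p = 0.713). Acsl4, at 3.98, 4.34 and 5.04 FPKM in control and 3.67, 3.91 and 3.64 in HFD, also had no overlap (log2 -0.20, SE 0.09, adjusted p = 0.727). Next came Cpt1c, whose values overlap at 34.5 FPKM (log2 -0.10, adjusted p = 0.736), and Acox3, at 17.1, 18.7 and 18.4 FPKM in control and 17.4, 16.9 and 16.3 in HFD (log2 -0.10, adjusted p = 0.746). Without overlap were 3 members on the lower side (Cpt2, Acsl4 and Echs1) and 1 on the higher (Acsl1), against 7.35% and 5.17% of all genes. Acsl1 differed by 0.05 on the log2 scale, with a 95% confidence interval of -0.04 to 0.15.

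The main effect of the diet was taken over both pairs of groups, with and without AOS. Again 0 of 33 passed (0% of all genes), and 0 had an unadjusted p under 0.05, against 5.07% of all genes on the lower side and 4.41% on the higher. This count of 0 was 4 without HFD-AOS 3, and 1 without control 1, control 2 or AOS 1. Values did not overlap for 0 members, against 0.114% of all genes lower and 0.0763% higher. Lower log2 values were found for 25 of 33 members, where 54.7% of all genes were lower, and the median was -0.05 (all genes -0.01). The smallest p was that of Acads, at 3.91, 3.21 and 4.40 FPKM in control, 3.89, 4.26 and 3.58 in AOS, 3.02, 3.27 and 3.31 in HFD, and 3.71, 3.07 and 4.19 in HFD-AOS. Of these groups HFD had the lowest mean, but its libraries overlapped those of control and HFD-AOS, and only the AOS libraries lay wholly above them. The mean of Acads was 3.43 FPKM on the diet and 3.88 FPKM off it (log2 -0.14, 95% confidence interval -0.30 to 0.02, adjusted p = 0.570). Cpt2 (log2 -0.06), Acox3 (-0.06) and Acsl6 (-0.06) followed, with adjusted p of 0.587, 0.599 and 0.599. Cpt2 was at 29.6, 29.3 and 30.7 FPKM in AOS and 30.9, 29.2 and 29.3 in HFD-AOS, so with AOS the diet groups overlapped. Acsl6, a synthetase best known from brain, was at 39.4, 39 and 37.1 FPKM in control, 35.9, 38.4 and 37.4 in AOS, 35.4, 36.2 and 38.4 in HFD, and 34.6, 34.7 and 37.8 in HFD-AOS. Each diet group of Acsl6 overlapped its counterpart off the diet. The widest interval of a member, that of Cd36, ran from -0.45 to 0.17. The synthetases were 3 higher and 2 lower, while 10 of the 12 spiral enzymes and all 4 tested peroxisomal genes were lower.

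AOS without the diet was set against the same control libraries. Again 0 of 33 members passed, against 0.0229% of all genes, and 4 members were lower at an unadjusted p under 0.05 and 0 higher, against 10.2% and 5.58% of all genes. The log2 value was lower for 25 of 33 members, where 59.8% of all genes were lower, and the median difference was -0.07 (all genes -0.03). Values of the groups did not overlap for 5 members, all lower in AOS (Acox3, Cpt1a, Hadha, Crat and Echs1), against 15.2% of all genes lower and 7.96% higher.

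Acox3 was at 15.3, 16.6 and 16.5 FPKM in AOS, under each control value (log2 -0.16, SE 0.05, adjusted p = 0.168). Acsl4 was at 3.18, 4.23 and 3.13 FPKM in AOS, where the second library reached the control range (log2 -0.28, SE 0.09, adjusted p = 0.168). Acadm, whose loss impairs the use of medium-chain fats, was at 11.7, 12.5 and 10.5 FPKM in control and 8.19, 11.2 and 7.96 in AOS (log2 -0.33, SE 0.12, adjusted p = 0.214). Its second AOS library again lay among the controls. Cpt1a, given above, differed by -0.18 (SE 0.07, adjusted p = 0.249). AOS 2 stood nearer the control for Acsl4, Acadm and Cpt1a alike. The count of 4 members was 9 without AOS 2, and 2 without AOS 1 or without AOS 3.

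On the diet, HFD-AOS was set against HFD, libraries that also enter the diet comparison. Once more 0 of 33 members passed (0% of all genes). At an unadjusted p under 0.05, 5 members were lower and 0 higher, against 7.81% and 4.89% of all genes. Lower log2 values were found for 25 of 33 members, where 56.1% of all genes were lower, and the median was -0.07 (all genes -0.02). Values did not overlap for 4 members, all lower (Hadhb, Acaa1a, Acsl3 and Acsl4), against 8.49% of all genes lower and 4.9% higher.

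Acsl5, a synthetase of mitochondria and endoplasmic reticulum that is abundant in the gut, was at 14.1, 14.2 and 12 FPKM in HFD and 10.6, 11.2 and 12.1 in HFD-AOS (log2 -0.23, SE 0.07, adjusted p = 0.245). Only the highest HFD-AOS value and the lowest HFD value overlapped. Acsl5 shares exonic bases with Zdhhc6 on the other strand, which had a mean of 10.0 FPKM. Hadhb was at 51.8, 55.9 and 48.2 FPKM in HFD and 40.8, 47.5 and 46.3 in HFD-AOS, without overlap (log2 -0.21, SE 0.07, adjusted p = 0.251).

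Hsd17b4 was at 15.9, 16.7 and 16.5 FPKM in HFD and 12.9, 14.7 and 15.9 in HFD-AOS (log2 -0.17, adjusted p = 0.335). Etfa was at 13.9, 14.3 and 12.2 FPKM in HFD and 8.51, 12 and 12.7 in HFD-AOS (log2 -0.28, adjusted p = 0.339). For both genes the lowest value of the series was in HFD-AOS 1, which also held the lowest Etfb, Hadhb, Acaa1a and Echs1. Without HFD-AOS 1, the difference was -0.11 for Etfa, -0.09 for Hsd17b4, -0.14 for Hadhb and -0.19 for Acsl5, with adjusted p between 0.392 and 0.637, and 3 members had an unadjusted p under 0.05. Without HFD 2 that count was 2. The plot of deviations by library shows where these values lie.

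**Figure D2:**
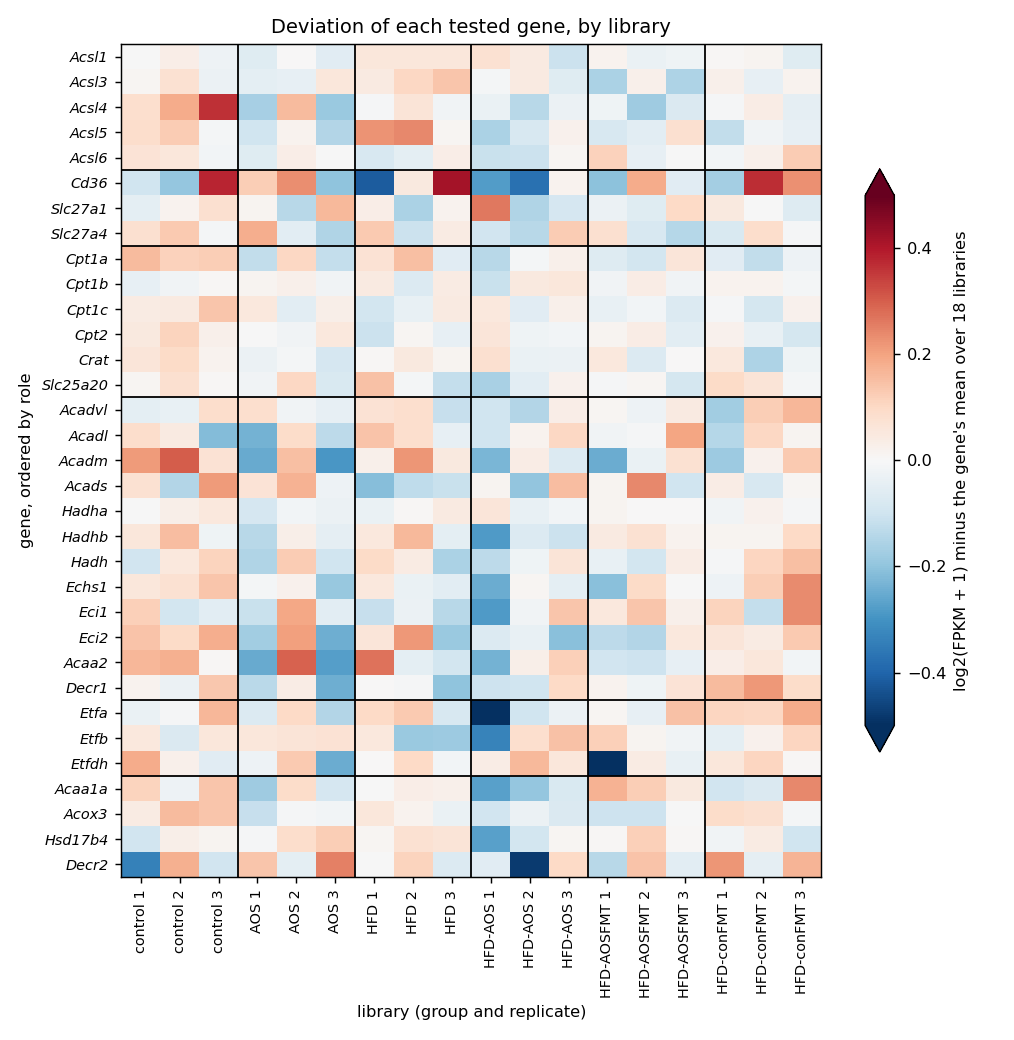
Deviation of each tested member from its own mean over the 18 libraries, as log2(FPKM + 1), with members in rows by role and libraries in columns by group. HFD-AOS 1 has the lowest member median, -0.10, and the 3 control libraries have medians of 0.05.

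The AOS main effect pools both contrasts, with AOS and HFD-AOS on one side and control and HFD on the other. It was the comparison with most calls among all genes: 288 genes passed, or 2.2%, of which 0 were members. Without AOS 1 the count of all genes was 0. At an unadjusted p under 0.05, 9 members were lower and 0 higher, against 13.2% and 6.81% of all genes. The log2 value was lower for 26 of 33 members, where 59.6% of all genes were lower, and the median was -0.06 (all genes -0.02). Values of the 6 and 6 libraries did not overlap for 0 members, against 0.969% of all genes lower and 0.496% higher. By role, all 5 synthetases, 10 of 12 spiral enzymes, 3 of 4 peroxisomal genes, 4 of 6 shuttle genes, and 2 of 3 in both uptake and electron transfer were lower.

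Acsl5 came nearest to the threshold, with a mean of 11.3 FPKM with AOS and 13.0 FPKM without (log2 -0.19, 95% confidence interval -0.30 to -0.08, adjusted p = 0.0650). Its AOS libraries, at 11.1, 12.1 and 10.7 FPKM, overlapped the controls, at 12.8, 13.1 and 11.8, by the second library only. Hadhb had means of 46.5 and 52.1 FPKM (log2 -0.16, SE 0.05, adjusted p = 0.0767). Off the diet it was at 51.9, 55.6 and 49.1 FPKM in control and 45.2, 50.9 and 48.3 in AOS, so both AOS contrasts leaned to lower values.

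Acox3 had means of 16.0 FPKM with AOS and 17.5 FPKM without (log2 -0.12, SE 0.04, adjusted p = 0.0822). Its HFD-AOS libraries were at 15.5, 16.3 and 15.8 FPKM, of which the second met the lowest HFD value. Acadm had means of 9.22 and 11.2 FPKM (log2 -0.26, SE 0.09, adjusted p = 0.111). The HFD libraries of Acadm stood at 10.1, 11.8 and 10.3 FPKM and those of HFD-AOS at 8.34, 10.2 and 9.44, which overlap slightly. The other 5 of the 9 were Acsl4 (log2 -0.18), Cpt1a (-0.14), Acaa1a (-0.16), Etfa (-0.18) and Eci2 (-0.17), with adjusted p from 0.128 to 0.225. These calls sit near the threshold: without AOS 2, Acsl4 (log2 -0.23, adjusted p = 0.0406) and Acadm (log2 -0.33, adjusted p = 0.0418) passed, and without HFD 3, Acsl5 passed (log2 -0.23, adjusted p = 0.0425). For Cpt1b the same effect was 0.01, with an interval of -0.06 to 0.08, and for Crat -0.06, with an interval of -0.13 to 0.02.

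**Figure D3:**
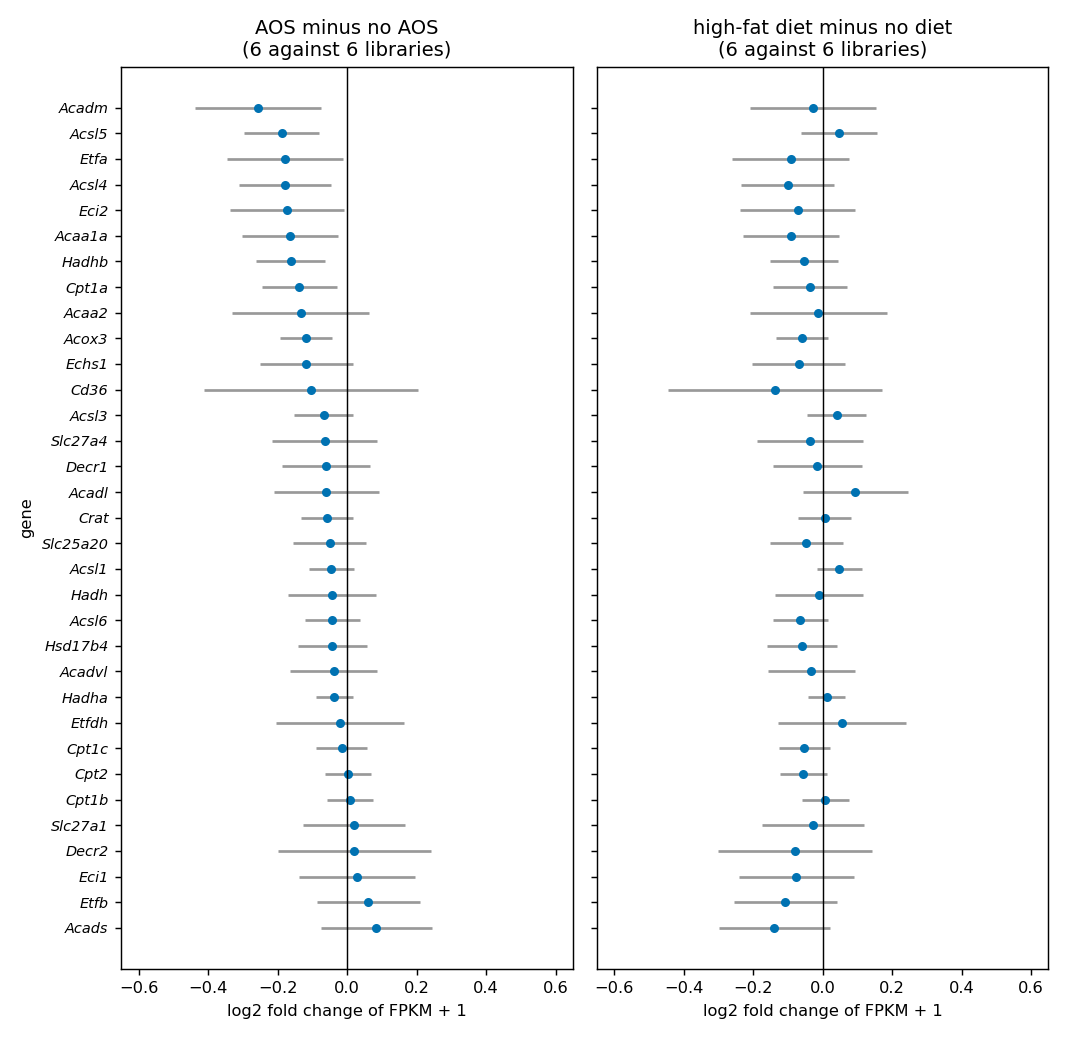
Main effects of the diet and of AOS on each tested member, as log2 differences with 95% confidence intervals, members ordered by the AOS effect and 6 against 6 libraries in each panel. For AOS 26 of 33 points lie left of 0 and for the diet 25 of 33, and no member passes an adjusted p of 0.05 in either.

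Whether AOS acted differently on the diet was asked by the difference of the 2 AOS contrasts. Of 33 members 0 passed (0% of all genes), and 1 had an unadjusted p under 0.05, on the lower side, against 3.24% of all genes lower and 3.62% higher. The difference was lower for 12 of 33 members, where 47% of all genes were lower. The count of 1 was 0 without HFD-AOS 1, 2 without control 2 or HFD-AOS 3, and 4 without AOS 2. The member counted was Hsd17b4, at 14.7, 16.1 and 15.9 FPKM in control and 15.7, 16.8 and 17.2 in AOS, a small excess where HFD-AOS was under HFD (difference of effects -0.25, SE 0.09, adjusted p = 0.703). Decr2 (-0.36, SE 0.21), Cpt2 (0.10) and Decr1 (0.19) followed, with adjusted p of 0.786 to 0.794. The 95% confidence interval for Decr2 was -0.80 to 0.08. Decr2 was at 1.95, 3.22 and 2.49 FPKM in control, 3.11, 2.61 and 3.44 in AOS, 2.73, 3.03 and 2.56 in HFD, and 2.59, 1.68 and 3.00 in HFD-AOS, with overlap between all 4 groups. Decr1 was at 3.02, 2.89 and 3.36 FPKM in control, 2.62, 3.07 and 2.35 in AOS, 2.98, 2.95 and 2.45 in HFD, and 2.70, 2.71 and 3.25 in HFD-AOS, also with overlap.

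The FMT groups were each set against the same HFD libraries, so those comparisons share their reference. In HFD-AOSFMT against HFD 0 of 33 members passed, against 0.0229% of all genes. At an unadjusted p under 0.05, 2 members were lower (4.59% of all genes) and 0 higher (5.23%). The count of 2 was 1 without HFD 2 or HFD-AOSFMT 1, and 4 without HFD-AOSFMT 3. Lower log2 values were found for 24 of 33 members, where 52.6% of all genes were lower, and the median was -0.02 (all genes -0.01). Acsl3, a synthetase of the endoplasmic reticulum and of forming lipid droplets, was at 10.8, 11.2 and 11.5 FPKM in HFD and 9.22, 10.6 and 9.23 in HFD-AOSFMT, without overlap (log2 -0.19, SE 0.06, adjusted p = 0.363). In every comparison, Acsl3 shares exonic bases with Utp14b on the same strand, which had a mean of 7.30 FPKM. A strand setting would not part the reads of these genes. Acsl5 was at 11.2, 11.4 and 12.7 FPKM, of which the third lay among the HFD values (log2 -0.18, adjusted p = 0.451).

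Acads went the other way, with 3.70, 4.50 and 3.35 FPKM in HFD-AOSFMT, each above the HFD values of 3.02, 3.27 and 3.31 (log2 0.20, 95% confidence interval -0.02 to 0.43, adjusted p = 0.560). Acox3 was at 15.4, 15.4 and 16.6 FPKM in HFD-AOSFMT (log2 -0.08, adjusted p = 0.598). In all, 3 members without overlap were lower (Acsl3, Acsl1 and Acsl4) and 3 were higher (Acads, Eci1 and Acaa1a), against 8.88% and 8.34% of all genes.

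In HFD-conFMT against HFD 0 of 33 members passed (0% of all genes), with 1 member lower and 1 higher at an unadjusted p under 0.05, against 5.26% and 7% of all genes. The log2 value was lower for 13 of 33 members, where 50.8% of all genes were lower. Acsl5, at 10.9, 11.8 and 11.6 FPKM in HFD-conFMT, lay wholly under HFD (log2 -0.22, SE 0.07, adjusted p = 0.260). Decr1, needed for unsaturated chains, was at 3.43, 3.62 and 3.23 FPKM in HFD-conFMT against 2.98, 2.95 and 2.45 in HFD (log2 0.22, SE 0.08, adjusted p = 0.324). All 3 HFD-conFMT values of Decr1 were above all 3 of HFD.

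Cpt1a (log2 -0.12, adjusted p = 0.507) and Acsl3 (log2 -0.09, adjusted p = 0.517) came next. Acsl3 was at 10.6, 10.1 and 10.6 FPKM in HFD-conFMT. Without overlap, 3 members were lower (Acsl5, Acsl3 and Acsl1) and 2 higher (Decr1 and Acads), against 9.83% and 10.3% of all genes. The 3 lower ones are all synthetases, as were the 3 lower ones with HFD-AOSFMT, and Acsl1 and Acsl3 are in both sets. Whether synthetases were more frequent among members without overlap than other roles was not tested. Each count was 3 of 33 members, beside 9.83% of all genes with HFD-conFMT and 8.88% with HFD-AOSFMT. In both cases the reference is the same 3 HFD libraries, in which Acsl1, Acsl3 and Acsl5 each had their highest group mean, 262.6, 11.2 and 13.5 FPKM.

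**Figure D4:**
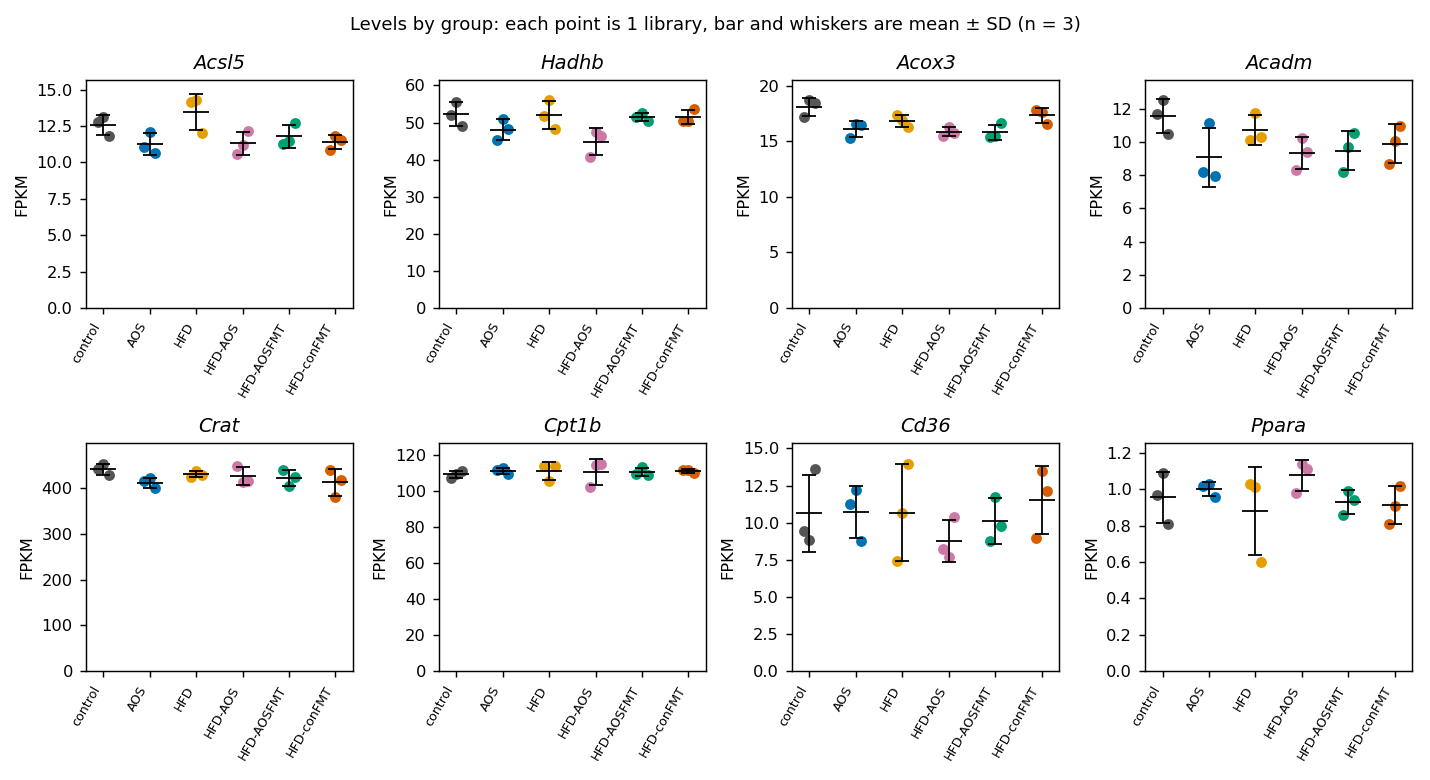
FPKM of 8 members by group, on axes from 0, where each point is a library and the bar and whiskers give the mean and SD of 3 libraries. Acsl5 is highest in HFD, with a group mean of 13.5 FPKM against 11.3 to 12.6 in the other groups.

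The 2 FMT groups were then compared with each other. Again 0 of 33 members passed, against 0.00763% of all genes, and 1 member was lower at an unadjusted p under 0.05 in HFD-AOSFMT and 0 higher, against 1.87% and 1.25% of all genes. Lower log2 values were found for 20 of 33 members, where 52.9% of all genes were lower. The count of 1 was 0 without HFD-AOSFMT 1 or HFD-conFMT 2, and 3 without HFD-AOSFMT 2. The member counted was Acox3, at 17.8, 17.7 and 16.5 FPKM in HFD-conFMT, where the highest HFD-AOSFMT value met the lowest of these (log2 -0.12, SE 0.05, adjusted p = 1.00). Etfdh differed by -0.24 on the log2 scale, but its HFD-AOSFMT values of 5.98, 9.42 and 8.87 FPKM hold the lowest of the series in the first library, against 9.54, 9.92 and 9.18 in HFD-conFMT. Etfdh shares exonic bases with 4930579G24Rik, which had a mean of 17.4 FPKM. Without overlap were 2 members, Decr1 and Acaa2, both lower in HFD-AOSFMT, against 5.39% of all genes lower and 4.68% higher. Acsl3 (-0.10) and Echs1 (-0.15) completed the 4 smallest p. Echs1 was at 8.98, 11.3 and 10.5 FPKM in HFD-AOSFMT and 10.3, 11.6 and 12.6 in HFD-conFMT, which overlap.

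Over all 6 groups, the F test called 0 of 33 members, against 0.328% of all genes, and 4 had an unadjusted p under 0.05, against 18% of all genes. These were Acox3 (adjusted p = 0.175), Acsl5 (0.225), Hadhb and Acsl4. The count of 4 was 7 without HFD-AOS 3 and 10 without AOS 2. Acox3 had group means of 18.1 ± 0.83 FPKM in control, 16.1 ± 0.72 in AOS, 16.8 ± 0.56 in HFD, 15.9 ± 0.40 in HFD-AOS, 15.8 ± 0.68 in HFD-AOSFMT and 17.3 ± 0.70 in HFD-conFMT (SD, n = 3 each). The control and HFD-conFMT stood highest, and the 3 groups labelled with AOS lowest.

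The wider pathway was described with 5 lists of other genes. Of the 36 other genes of fatty acid breakdown, 29 were tested. In this list Acadsb, the dehydrogenase of short branched chains made from isoleucine, was the only gene of the 5 lists that passed in any of the comparisons, and it fell with AOS. Acadsb was at 9.71, 10.2 and 10.9 FPKM in control and 7.55, 8.38 and 8.10 in AOS, and at 9.52, 10.2 and 9.08 in HFD and 7.68, 8.94 and 8.83 in HFD-AOS. Both contrasts were free of overlap, and the AOS main effect was -0.24 on the log2 scale (SE 0.05, adjusted p = 0.0272). The call was lost when control 2, control 3, AOS 1, AOS 3 or HFD 2 was left out (adjusted p 0.0576 to 0.0852, log2 -0.22 to -0.25). It was also lost without both control 3 and HFD-conFMT 2 (adjusted p = 0.0764), and when the 4 groups were fitted alone (adjusted p = 0.0971). Without both HFD-AOS 1 and HFD-AOS 3, the effect was -0.21. In the same list Slc22a5, the carnitine transporter of the plasma membrane, was at 9.55, 9.95 and 11.1 FPKM in control and 7.97, 9.31 and 8.41 in AOS, and at 8.73, 10.6 and 9.07 in HFD and 8.08, 8.06 and 8.51 in HFD-AOS (AOS main effect -0.20, adjusted p = 0.0540). Of the 29, 21 were lower with AOS and 8 higher, with a median of -0.07, where 59.6% of all genes were lower (median -0.02). The 1 call among 29 stands beside 2.2% of all genes.

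Of the other uptake, binding and activation genes, 20 of 28 were tested and 0 passed in any comparison. Dbi, the acyl-CoA binding protein, had group means of 85.2 ± 2.75 FPKM in control, 89.96 ± 6.25 in AOS, 94.0 ± 4.96 in HFD and 104 ± 9.2 in HFD-AOS (SD, n = 3; diet main effect 0.17, adjusted p = 0.453). Fabp4, the fatty acid binding protein of fat cells and capillaries, was at 19.8, 27.4 and 19.1 FPKM in HFD-conFMT and 3.45, 7.53 and 7.92 in HFD (log2 1.71, SE 0.57, adjusted p = 0.270). These values did not overlap. The summed fat cell markers were highest in HFD-conFMT, at 169 to 180 FPKM against 141 to 167 in the other groups. That sum contains Fabp4, whose mean was 22.1 FPKM in HFD-conFMT and 6.3 in HFD, so it is not separate evidence. Lipe, the largest part of the sum and also expressed by testis, had means of 130 FPKM in HFD-conFMT and 129 in HFD. The other fat cell markers in the 5 lists, too low to be tested, were higher in HFD-conFMT. Cidec had means of 1.20 FPKM there and 0.243 in HFD, and Plin1 of 0.99 and 0.637. The mean log2 level of all 8 markers, Fabp4 among them, was 2.74 to 2.88 in HFD-conFMT and 1.90 to 2.38 in HFD. The part of fat cells in the Fabp4 result was not tested.

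Of the 22 thioesterase and ketone body genes 14 were tested, of the 16 lipid droplet genes 11, and of the 24 PPAR partners and targets 17, and 0 of these passed in any comparison. Of the ketone body genes, Oxct2a, a testis form of the enzyme that uses ketone bodies and nearly identical to Oxct2b, had a mean of 141 FPKM, and Bdh2 of 1.06 FPKM (AOS main effect -0.33, adjusted p = 0.108). Of the lipid droplet genes, Abhd5, the activator of the fat lipase, was at 74.2 ± 1.73 FPKM in AOS and 68.2 ± 1.1 in control, and at 61.5 ± 7.71 in HFD-AOS and 69.5 ± 1.84 in HFD (SD, n = 3; difference of effects -0.30, adjusted p = 0.631). G0s2, which inhibits that lipase, had a mean of 1.78 FPKM. Of the PPAR list, the corepressor Ncor1 was at 20.2 ± 0.15 FPKM in AOS against 23.6 ± 0.45 in control (log2 -0.22, adjusted p = 0.108), and the nuclear receptor Esrra at 6.37 ± 0.28 FPKM in HFD-AOSFMT against 5.32 ± 0.15 in HFD (log2 0.22, adjusted p = 0.363).

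Markers of Leydig and germ cells also differed between libraries. For Leydig cells, the steroid-making cells between the tubules, the summed level of the 6 markers was 3988, 3465 and 3793 FPKM in control and 2759, 3457 and 2536 in AOS, and it was 4560, 3068 and 3435 in HFD and 4897, 2805 and 2808 in HFD-AOS. AOS 1 and AOS 3, in which Acadm, Cpt1a and Acsl4 were low, had the 2 lowest sums of the series, while AOS 2 was level with control 2. HFD-AOS 1 went the other way, with the highest sum of the series, 4897 FPKM. It held the lowest Cpt1a, at 9.14 FPKM, and the lowest member median, -0.10. Across the 18 libraries, the mean log2 level of the Leydig markers had a positive correlation with 24 of 33 members, from -0.31 to 0.69, and 0 of 33 passed after adjustment over 66 relations (Leydig and round spermatid markers, 100000 permutations). The highest was for Eci2 (Pearson r = 0.69, permutation p = 0.00148, adjusted 0.0977; Spearman rho = 0.70, adjusted 0.0650). Within groups r was 0.70 for Eci2, and without AOS 1 and HFD-AOSFMT 3, the libraries farthest from the median, it was 0.71. With the round spermatid markers 6 of 33 members had a positive correlation. The share of all genes with a positive correlation was not computed, so neither count can be read as particular to the members. The summed level of the 6 elongating spermatid markers was 42870 to 48830 FPKM in control and 53720 to 55330 in AOS, without overlap, and 40080 to 53060 in HFD and 52300 to 60090 in HFD-AOS. That of the 6 spermatocyte markers was 479 to 502.5 FPKM in control, 443.5 to 482.6 in AOS, 473.7 to 497.5 in HFD and 432.2 to 483.4 in HFD-AOS, with overlap in both pairs. The part of these cells in the AOS values was not tested.

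**Figure D5:**
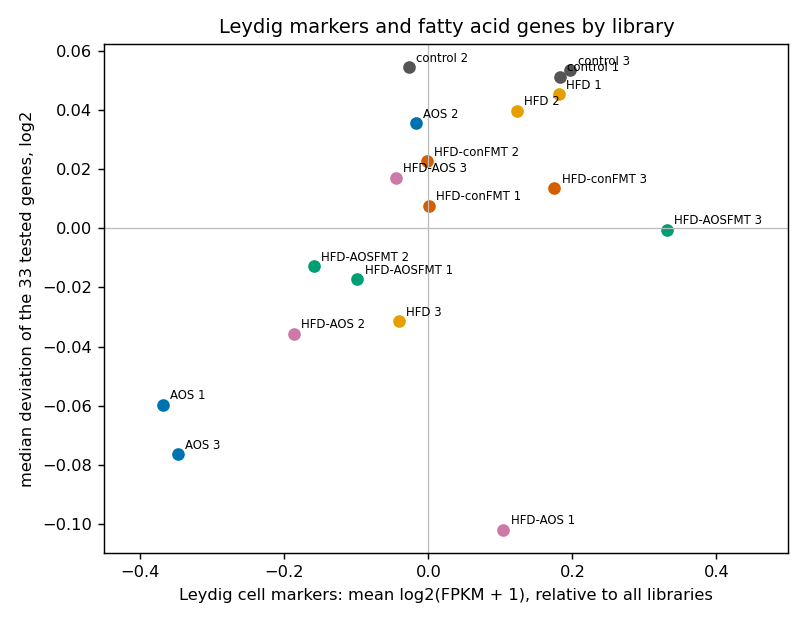
Median deviation of the 33 tested members in each library against the mean log2 level of 6 Leydig markers relative to its mean over libraries, coloured by group. AOS 1 and AOS 3 lie at the left, with marker levels of -0.37 and -0.35, and HFD-AOS 1 lies lowest, at a member median of -0.10.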

How the data were processed

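RNA sequencing of mouse testis gave 18 libraries, and the authors deposited 1 table of 20985 rows whose header names no unit. The values were read as FPKM, deposited by the authors to 2 decimals: over 291 genes with 1 transcript, the smallest value fell with transcript length (Spearman -0.691 across genes, which are not replicates), and at 1 read for that value a library would hold about 12700000 reads. Reads were mapped with Bowtie 0.12.2 to mm10, per the submitters' processing notes. The counting tool, annotation and strand setting: not given in the sources used here. Columns were matched to samples by the letters and numbers in their names.

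The members, lists, tests and alternatives were chosen with earlier results of these data known. The 3 repeated symbols (6 rows) were dropped. Values were taken as log2(FPKM + 1), and the 13105 genes whose mean reached 1 FPKM were tested in 1 limma model of 6 group means with a mean-variance trend (limma 3.58.1, R 4.3.3, 12 residual degrees of freedom, two-sided, Benjamini-Hochberg over all genes, threshold 0.05). All 37 members are accounted for; values in every library are printed for the member of highest mean in each role, for the Cpt1 genes, Cd36, Ppara and Ppargc1a, and, in the groups compared, for members among the 4 of smallest p in a comparison. Of each pathway list, the genes called and the 2 of smallest F test p are named. Other genes named were chosen after their values were seen. On simulated data, 200 of 13105 genes were changed by 0.5 on the log2 scale. The model recovered 158 for HFD against control, 168 for AOS against control and 177 for the diet main effect. For the difference of AOS effects it recovered 109. At a change of 1 it recovered 191, 193, 197 and 178. Each run also called 6 to 18 unchanged genes. Changes under 0.5, where all member differences lay, were not simulated, nor were the AOS main effect and the comparisons with FMT. Coordinates are from GENCODE vM21 (GRCm38, the assembly of mm10), and promoter windows from RefSeq on GRCm38.p6. Alternatives were the pseudocount, the low-value filter, quantile normalization, separate fits, a replicate block, and leaving out libraries. Figures used matplotlib 3.10.9 in Python 3.11.15.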

Additional observations from a re-analysis of the deposited data

How the results depend on the processing

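Of 269 counts of called members under the alternatives, 266 were 0 as reported. The exceptions all concern the AOS main effect: 1 member was called with a filter of a mean of at least 5 FPKM (Acsl5, adjusted p = 0.0468), and leaving out 1 library gave 0 to 2. All 965 values of the named members kept their direction, but many of the settings could not change it. The filter, the replicate block, separate fits and leaving out a library of another group leave a difference of group means unchanged. These members were also picked by their small p in the same data. The member median changed sign under 2 settings only, for the difference of AOS effects (0.02; without AOS 3 or HFD-AOS 3, at lowest -0.004). Under the replicate block, 0 members were called in any comparison, and the lowest adjusted p of the AOS main effect was 0.0507. No pairing by replicate number was seen. Same-numbered libraries of different groups correlated by -0.243 to 0.167 (45 pairs) and differently numbered ones by -0.336 to 0.317 (90 pairs). Of the 18 libraries, 6 were closest to their own number. The labels do not say whether the numbers mark shared animals or batches. Counts over all genes moved more. For the AOS main effect 288 genes were called, against 134 without the filter, 199 after quantile normalization, 306 with the block, 0 when fitted on its groups alone, 21 without control 3 and HFD-conFMT 2, and 0 to 383 with 1 library left out. Added after seeing the data, leaving out AOS 2 and HFD-AOS 3 gave 126, and HFD-AOS 1 and HFD-AOS 3 gave 1, with 0 members in both. The F test called 43 genes, 20 with the block, 12 after quantile normalization and 2 to 145 with 1 library left out. AOS against control called 3, and 0 to 44 with 1 left out. Without the filter, the FMT comparisons called 26, 3 and 16 genes in place of 3 (HFD-AOSFMT against HFD), 0 (HFD-conFMT against HFD) and 1 (HFD-AOSFMT against HFD-conFMT). The diet main effect called 0, and 0 to 36 with 1 library left out. Depth limits Acox2, listed at 0 in 10 of 18 libraries.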
